A study of Mus musculus with 18 samples.

Results

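The tripartite motif (TRIM) genes encode a large family of proteins, most of them ubiquitin ligases, and were followed here through RNA sequencing of microglia, the macrophages that live in brain tissue, grown from mouse pups. Members were chosen by symbol (protein-coding genes named Trim with a number and at most 1 letter) and selected on their level, 100 or more counts summed over all 18 libraries. Of 54532 genes in the table, 68 were TRIM genes by name and 43 reached that sum. Trim34b, Trim17 and Trim7 lay just inside the limit with 132, 155 and 172 counts, and Trim66, Trim9 and Trim15 lay just outside with 72, 59 and 47. The other 22 held 39 counts or fewer, 9 of them none. All 43 members also passed the filter on low counts of the test used for all genes.

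The cells came from pups of postnatal day 0 to 3 and grew for 10 days in mixed culture before microglia were isolated. There were 6 groups of 3 libraries. Trem2+/+ cells, labelled mTrem2 +/+, carried the mouse gene of the lipid-sensing microglial receptor TREM2, and R47H/+ cells, labelled hTrem2 R47H/+, carried human TREM2 with the R47H change, a risk variant for Alzheimer disease, on 1 allele. Each genotype was measured without and with 0N4R tau fibrils at 1 ug per ml, after a 6 h pre-treatment with 0.01% DMSO. R47H/+ cells were also pre-treated for 6 h with 1 uM of the AKT kinase inhibitor MK-2206, and then left without or given the same tau. The duration of the tau exposure is not given in the sources used here, and no Trem2+/+ cells received MK-2206. No group carried human TREM2 without the R47H change, so the human gene and the change cannot be told apart. Nothing in the labels says whether replicates came from different cultures or animals, so p-values measure the spread between these libraries, which may be technical.

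Library totals lay between 16288531 and 20686299 counts, and the 43 members summed to between 1274 and 3267 CPM, counts scaled to a common library size. All 10 microglial markers averaged at least 1 CPM over the 18 libraries. They summed to 4571 to 7513 CPM in Trem2+/+ cells, 5482 to 6243 with tau, 5972 to 6081 in R47H/+ cells and 5950 to 8107 with tau. The sums were 4337 to 4781 with MK-2206 and 5810 to 6117 with MK-2206 and tau. The neuronal markers all averaged under 1 CPM over the 18 libraries, as did 4 of 8 astrocyte markers, Aqp4, Gfap, Gja1 and Slc1a2. The astrocyte list summed to 61.0 to 105.0 CPM in Trem2+/+ cells, 92.1 to 101.4 with tau, 66.3 to 69.7 in R47H/+ cells and 79.3 to 102.8 with tau, and 54.1 to 70.7 with MK-2206 and 94.4 to 106.9 with MK-2206 and tau. The summed fibroblast and vascular list moved with genotype and tau through Kdr, from 4.25 to 12.2 CPM in Trem2+/+ cells to 40 to 44.3 with tau, 25.2 to 32.6 in R47H/+ cells and 56.1 to 93.1 in R47H/+ cells with tau. This list summed to 30.5 to 33.1 CPM with MK-2206 and 97.4 to 102.7 with MK-2206 and tau. Its other 5 genes averaged under 1 CPM over the 18 libraries. The oligodendrocyte lineage list, with Mog, Olig2 and Pdgfra under 1 CPM, summed to 133 to 175 CPM in Trem2+/+ cells, 108 to 109 with tau, 121.0 to 133 in R47H/+ cells and 64.6 to 82.1 in R47H/+ cells with tau. It summed to 131.6 to 146.4 CPM with MK-2206 and 86.3 to 89.4 with MK-2206 and tau. The list of border macrophages, monocytes and granulocytes, with Cd163, Lyve1 and S100a9 under 1 CPM, ran from 393.6 to 561.3 CPM. The part of these lists in the results was not tested. Trem2 itself measured 935.0 to 1894 CPM in Trem2+/+ and 451.2 to 489.1 CPM in R47H/+ libraries without tau. Whether reads of the human allele were counted under this mouse gene was not tested. In Trem2+/+ replicate 3 and R47H/+ with tau replicate 2, the level of a gene fell with its length, relative to the other libraries of the group. The slope was fitted to log2 CPM minus the mean of the group's other libraries, with these 2 left out of that mean. Per 10-fold gene length it was -1.39 and -0.732 in these 2, and -0.173 to 0.138 in the remaining 16. Many results that rest on these length-shifted libraries, but not all, are given without them too.

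TRIM proteins carry a RING finger that recruits a ubiquitin-loaded enzyme, 1 or 2 B-boxes and a coiled coil through which they pair, followed by a carboxy-terminal region that differs between classes and often binds the target. Many are induced by interferon and act in antiviral defence: some bind viral capsids or antibody-coated particles, others add ubiquitin to the RNA sensor RIG-I or to adaptors of the pathways that make interferon. In macrophages and microglia several of them tune the signals of Toll-like receptors and RNA and DNA sensors. Most interferon-induced members carry a PRY-SPRY domain, and in the mouse a dense group of them lies on chromosome 7.

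The chromosome 7 group held 13 members: Trim3, Trim5, Trim6, Trim12a, Trim12c, Trim21, Trim30a, Trim30b, Trim30c, Trim30d, Trim34a, Trim34b and Trim68. In the GRCm38 coordinates of the count table they lie between bases 102557921 and 105633571, with Trim30b (ENSMUSG00000052749) at chr7:104355382-104369884, Trim30c (ENSMUSG00000078616) at chr7:104382065-104400837, Trim30a (ENSMUSG00000030921) at chr7:104409025-104465193 and Trim30d (ENSMUSG00000057596) at chr7:104470014-104507849 side by side on the minus strand. Trim25 (ENSMUSG00000000275) lies at chr11:88999376-89020293 and Trim46 (ENSMUSG00000042766) at chr3:89234177-89246309. Trim28, also on chromosome 7 at chr7:12999114-13031035, lies outside the group and is not counted in it. Interferon acts on many genes through the interferon-stimulated response element, whose core (GAAA, any 2 bases and a second GAAA) was searched on both strands of the 250 bases before to 50 after each start site in the RefSeq promoters of GRCm38.p6. RefSeq windows were matched for 32 of 43 members, and 9 of these (28.1%) held the core, against 3.99% of 27025 genes in the table of promoters. The longer form, with CT after the second GAAA, was found in 3 of 32 (9.38%) against 0.303% of all genes, and the TTCNNNGAA motif of the interferon-gamma response in 3 of 32 (9.38%) against 9.55%. The 60 bases before and 30 after the start are shown for 7 chromosome 7 members with the core, because 6 of these 7 are called higher in R47H/+ cells below and all 7 rise with tau in Trem2+/+ cells, and for Trim30c and Trim30b as neighbours without it. Capitals mark the core or its reverse complement.
Trim30a, chr7:104465164-104465253, minus strand: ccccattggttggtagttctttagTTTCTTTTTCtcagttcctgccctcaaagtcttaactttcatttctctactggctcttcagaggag
Trim30d, chr7:104507820-104507909, minus strand: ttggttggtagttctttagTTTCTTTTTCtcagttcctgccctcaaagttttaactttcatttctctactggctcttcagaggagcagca
Trim34a, chr7:104244397-104244486, plus strand: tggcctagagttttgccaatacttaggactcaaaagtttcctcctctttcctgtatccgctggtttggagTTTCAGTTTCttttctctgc
Trim12a, chr7:104315466-104315555, minus strand: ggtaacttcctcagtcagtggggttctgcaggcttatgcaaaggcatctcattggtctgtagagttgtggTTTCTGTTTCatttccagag
Trim12c, chr7:104353320-104353409, minus strand: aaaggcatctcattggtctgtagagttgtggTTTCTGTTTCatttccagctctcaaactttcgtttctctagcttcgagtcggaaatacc
Trim5, chr7:104288077-104288166, minus strand: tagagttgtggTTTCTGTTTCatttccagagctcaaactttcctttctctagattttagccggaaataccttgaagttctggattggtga
Trim21, chr7:102565453-102565542, minus strand: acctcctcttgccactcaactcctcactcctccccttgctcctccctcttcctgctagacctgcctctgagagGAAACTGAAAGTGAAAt
Trim30c, chr7:104400749-104400838, minus strand: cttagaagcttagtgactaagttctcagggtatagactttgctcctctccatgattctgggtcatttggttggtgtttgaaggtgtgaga
Trim30b, chr7:104358617-104358706, minus strand: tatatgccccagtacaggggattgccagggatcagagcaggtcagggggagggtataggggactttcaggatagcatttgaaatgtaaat

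Trim30a and Trim30d shared an unbroken run of 49 bases that includes the core, and Trim12a and Trim12c shared another of 49 bases, set at different distances from their annotated starts. Trim5 shared 31 bases with Trim12a. The first base of the core lay at position -36 of Trim30a and -41 of Trim30d, at -29 of Trim12c and -49 of Trim5, and 11 bases into the transcripts of Trim12a and Trim34a, counted from the RefSeq start. In Trim21 the capitals hold 2 overlapping matches, the first beginning at position 14. The other members with the core in their windows were Trim26, at -160, and Trim2, at 29, whose other RefSeq starts lacked it. Trim30b and Trim30c had no match in these windows, which says only that these letters are not there, and the RefSeq start of Trim30b lies inside the gene of the count table. A second RefSeq start of Trim30a also had the core, at position 3.

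Compared per length, as CPM divided by gene length in kilobases (RPKM), Trim30a was the most abundant member with a mean of 112.4 RPKM over the 18 libraries, followed by Trim25 at 74.9 and Trim30d at 49.2. Trim8, a RING protein without a named carboxy-terminal domain that acts in NF-kB and cytokine signalling, averaged 42.1 RPKM, and Trim28 (KAP1), the corepressor of KRAB zinc finger proteins with a PHD finger and bromodomain, 32.5. The leading members of the other classes were Trim14, which lacks a RING finger, at 25.3, Trim3, with NHL repeats, at 7.77, Trim13, which is anchored in the endoplasmic reticulum membrane, at 3.50, Trim37, with a MATH domain, at 2.89, Trim23, with an ARF GTPase-like domain, at 2.65, Trim36, with a COS box, at 1.79 and Trim45, with a filamin domain, at 0.319 RPKM. Trim7 and Trim2 were lowest at 0.068 RPKM each. The family thus spanned levels from over 100 RPKM to under 0.1 RPKM.

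**Figure D1:**
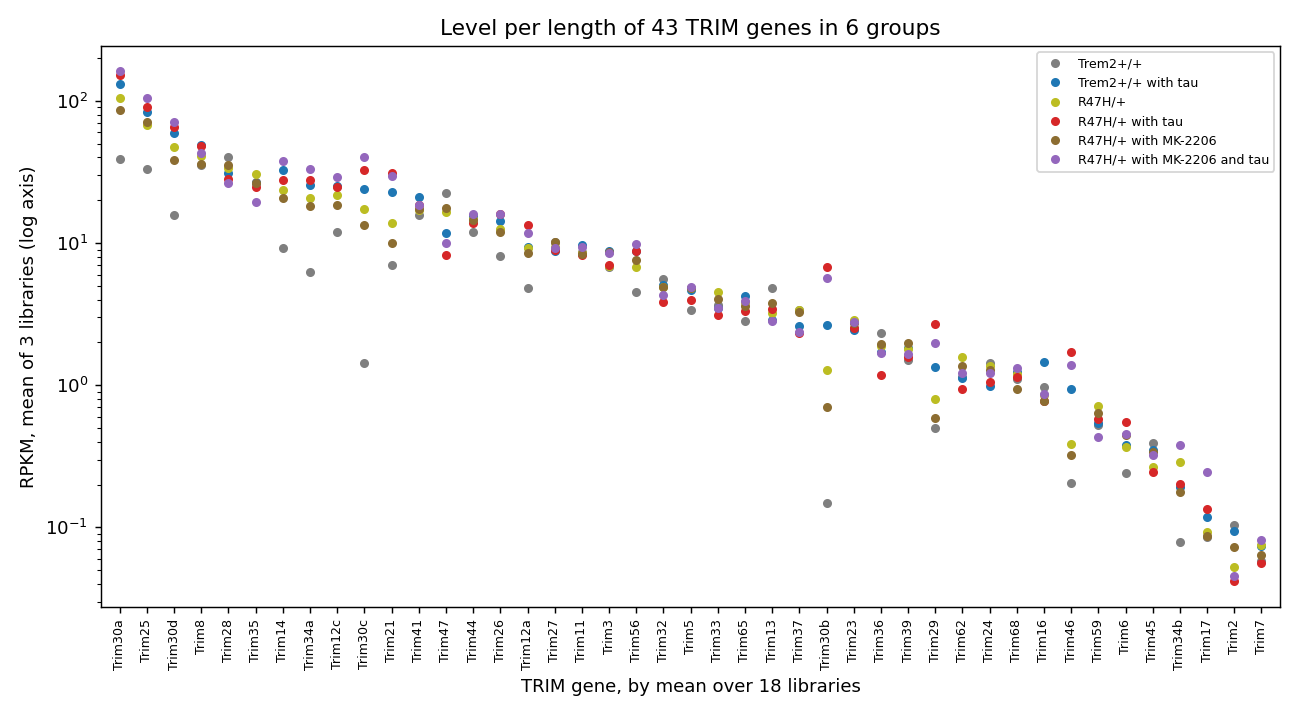
Mean level per length (RPKM, log axis) of each of the 43 members in the 6 groups, each point the mean of 3 libraries, with genes ordered by their mean over 18 libraries. Trim30a leads at 112.4 RPKM, and the points of Trim30b and Trim30c are the most widely spread, with the highest group mean 46.3 and 28.4 times the lowest.

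The spread between groups differed widely among members. The highest group mean exceeded the lowest by 46.3 times for Trim30b, 28.4 times for Trim30c, 8.32 times for Trim46, 5.35 times for Trim29 and 5.32 times for Trim34a. The same ratio was 1.16 for Trim27, 1.18 for Trim11 and 1.19 for Trim23. Over 7 pairwise comparisons, 16 members were called in none, 9 in 1, 4 in 2, 5 in 3, 6 in 4, 1 in 5 and 2, Trim21 and Trim30b, in 6. A member is called here when its adjusted p was under 0.05 in edgeR's quasi-likelihood test with Benjamini-Hochberg adjustment over 13267 genes. The tally over 7 comparisons was not made for all genes, whose share called in each comparison is given below.

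**Figure D2:**
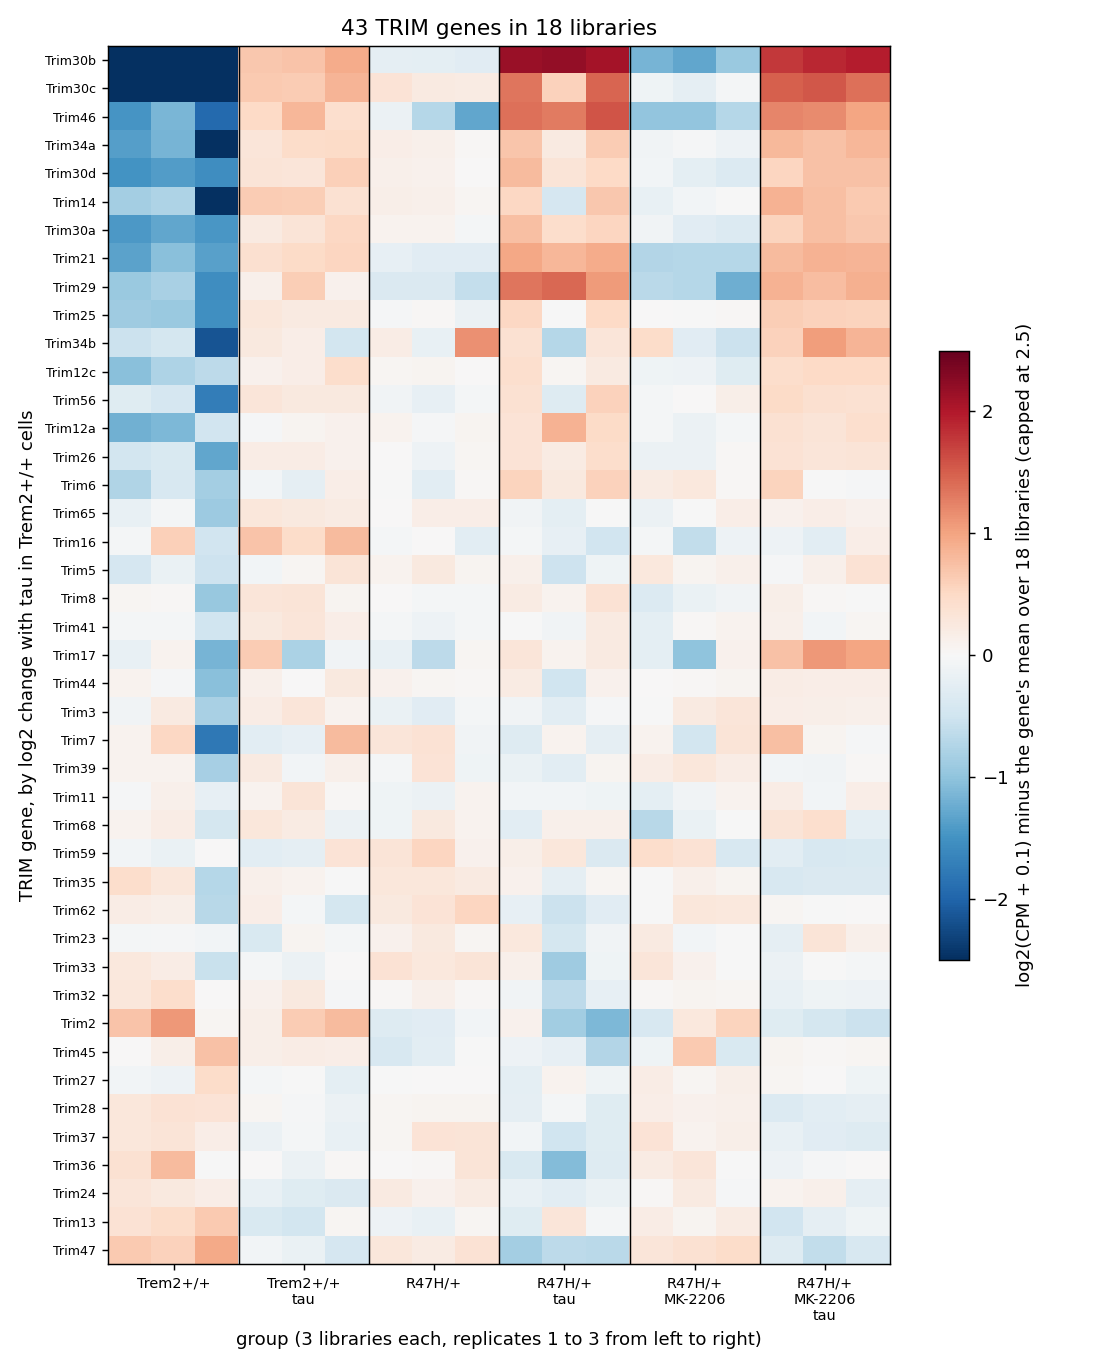
Each row is 1 of the 43 members and each column 1 of 18 libraries; colour gives log2(CPM + 0.1) minus the gene's mean over the libraries, with red above and blue below the mean and the scale ending at 2.5 in size. Trim30b, Trim30c and Trim34a near the top are lowest in the 3 Trem2+/+ libraries, and Trim47 at the bottom is highest there.

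Without tau, 11 of the 43 members were higher and 3 lower in R47H/+ than in Trem2+/+ microglia, where 15.1% of all 13267 genes were called (8.22% higher, 6.83% lower), and the members' median log2 change was 0.30 against -0.02 over all genes. Of the 13 members of the chromosome 7 group, 8 were higher and 0 lower. Of the 30 members outside it, among them Trim28, 3 were higher and 3 lower. The libraries of the groups did not overlap for 25 members (58.1%), against 31.4% of all genes. With the 2 length-shifted libraries left out, 19 members were called, where 28.9% of all genes were, and fitting only the 6 libraries compared called 7 of 41, where 3.81% of all genes were. Because bulk RNA was measured, fewer cells of a type and less RNA per cell cannot be told apart.

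The mouse Trim30 genes are interferon-inducible paralogs, and Trim30a is known to dampen Toll-like receptor signalling by removing the adaptors TAB2 and TAB3. Trim30a measured 154.4, 169.6 and 152.8 CPM in Trem2+/+ cells and 447.5, 444.3 and 405.1 CPM in R47H/+ cells, a log2 change of 1.44 (SE 0.115, edgeR adjusted p = 2.188e-07). Trim30d stood at 58.6, 63.1 and 56.7 CPM against 182.5, 179.6 and 168.1, a change of 1.57. The 3 libraries of each group lay close together and the groups did not overlap for either gene. Trim30b and Trim30c were nearly silent in Trem2+/+ cells, at 0.468, 1.65 and 1.21 CPM and 2.23, 3.90 and 1.21 CPM, and reached 9.82, 9.76 and 9.49 CPM and 31.5, 29.1 and 28.7 CPM in R47H/+ cells. Their log2 changes were 3.11 (SE 0.249, adjusted p = 2.296e-07) and 3.56 (SE 0.289, adjusted p = 2.592e-07, edgeR). Trim30a and Trim30d share 3.24% and 3.23% of their 150-base transcript words with each other, so few of their reads can be uncertain on that account.

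Trim34a, a PRY-SPRY neighbour of the Trim5 genes, went from 19.1, 22.1 and 7.63 CPM to 55.7, 54.6 and 51.2 CPM, a log2 change of 1.72 (SE 0.252, edgeR adjusted p = 0.0001582). Trim12a and Trim12c, relatives of the primate retrovirus restriction factor TRIM5alpha, changed by 0.94 and 0.86. Trim12a lay at 22.6, 23.7 and 37.6 CPM in Trem2+/+ and at 50.8 to 55.2 CPM in R47H/+ libraries, and Trim12c at 38.2 to 49.7 against 79.2 to 82.2 CPM. Trim21, the cytosolic antibody receptor that directs antibody-bound particles to the proteasome, rose from 24.1, 29.4 and 23.9 CPM to 52.8, 50.1 and 50.3 CPM, a log2 change of 0.98 (SE 0.0955, edgeR adjusted p = 2.018e-06). All 4 genes were higher in each R47H/+ library than in any Trem2+/+ library. Fitting only the 6 libraries compared ended the calls of Trim34a (adjusted p = 0.06518) and Trim12a (adjusted p = 0.1035, edgeR) with log2 changes of 1.71 and 0.92. Without the 2 length-shifted libraries Trim34a, Trim12a, Trim12c and Trim21 changed by 1.38, 1.21, 0.94 and 0.93, and all 4 stayed called.

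Away from chromosome 7, Trim25, which adds ubiquitin chains to RIG-I, rose from 217.8, 212.2 and 139.9 CPM to 394.0, 411.5 and 363.9 CPM, a log2 change of 1.04 (SE 0.156, edgeR adjusted p = 0.0002083). Without both length-shifted libraries this change of Trim25 was 0.86. Trim14, an adaptor at the mitochondrial antiviral protein MAVS, went from 52.9, 55.9 and 11.0 CPM to 106.5, 104.1 and 98.7 CPM. Its low value came from Trem2+/+ replicate 3, 1 of the length-shifted libraries. The log2 change of 1.36 was 0.90 without that library and 0.92 without both length-shifted libraries, where the call held (adjusted p = 4.377e-08), while the fit of only the 6 libraries compared and the fits without R47H/+ replicate 1, 2 or 3 ended it (adjusted p = 0.2775, 0.07225, 0.06989 and 0.05967, edgeR). Trim26, which acts on the transcription factor IRF3, changed by 0.64 and by 0.38 without Trem2+/+ replicate 3. Its call was lost with only the 6 libraries compared fitted and without R47H/+ replicate 1 or 3 (adjusted p = 0.266, 0.05627 and 0.06331, edgeR).

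The members lower in R47H/+ cells without tau were Trim13, Trim47 and Trim28. Trim13, a ligase of endoplasmic reticulum quality control, fell from 7.33, 7.80 and 8.91 CPM to 5.14, 4.97 and 5.81 CPM, a log2 change of -0.59. Trim47 fell from 58.3, 55.4 and 72.0 CPM to 45.2, 42.5 and 47.4 CPM, a change of -0.46, and Trim28 from 163.6, 172.0 and 168.5 CPM to 138.4, 140.3 and 139.2 CPM, a change of -0.27. These small differences left no overlap between the groups, yet each call was lost when only the 6 libraries compared were fitted (adjusted p = 0.1281, 0.1872 and 0.2585, edgeR) and without R47H/+ replicate 1 or 2. Trim13 and Trim28 also lost it without R47H/+ replicate 3, and Trim28 without Trem2+/+ replicate 2.

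**Figure D3:**
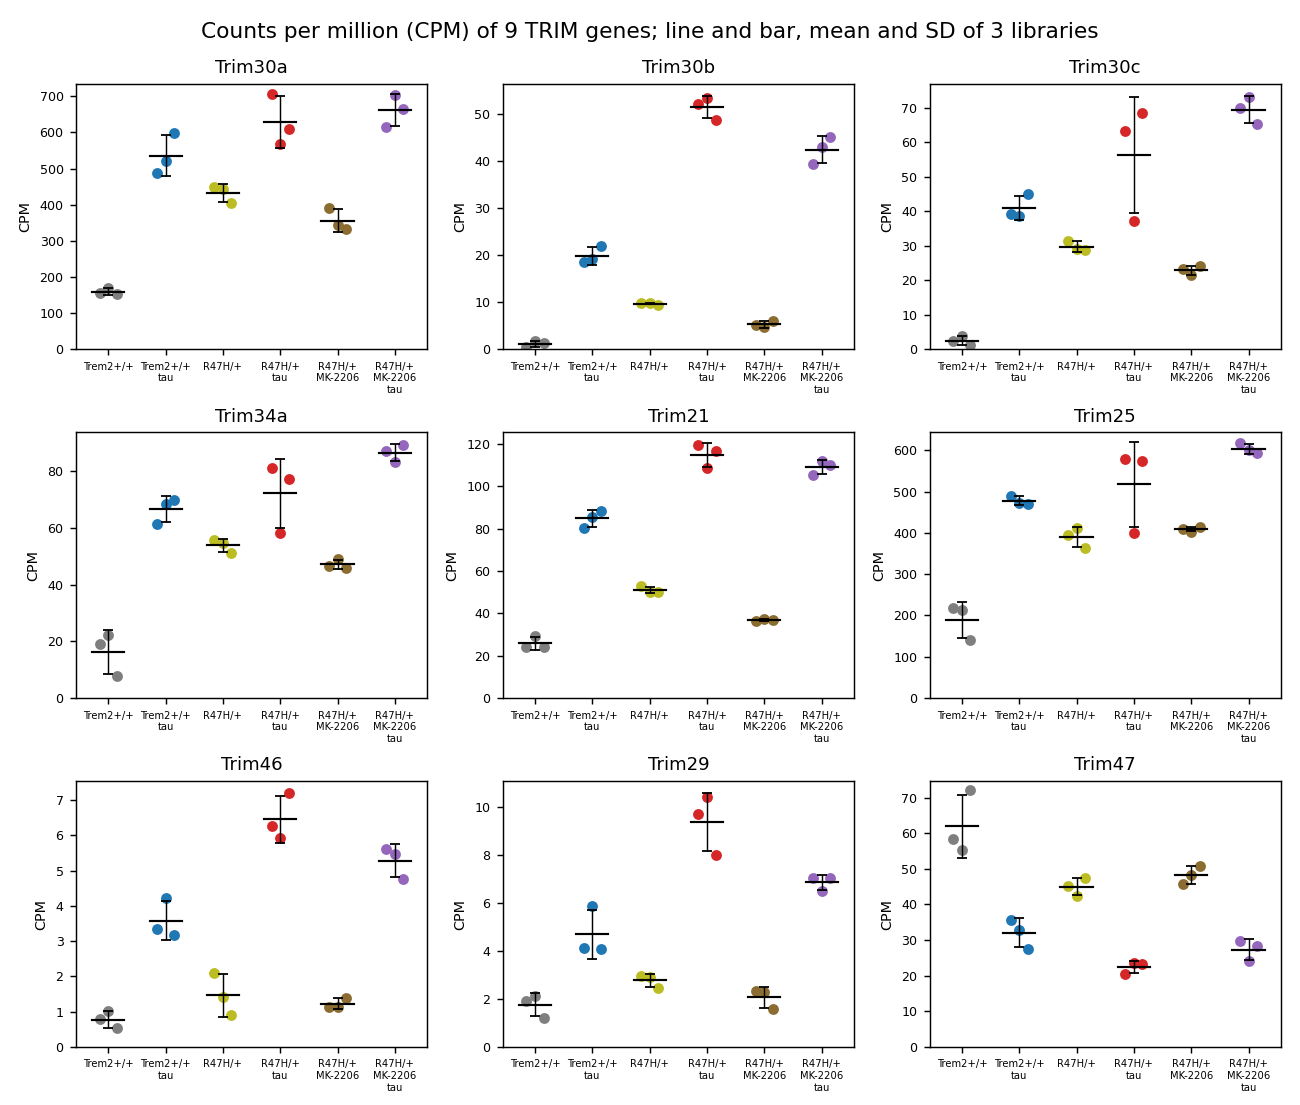
Points are the CPM of single libraries of 9 members in the 6 groups, the line the mean and the bar the SD of 3 libraries, each axis starting at 0. Trim30a, Trim30b, Trim30c, Trim34a, Trim21 and Trim25 are lowest in Trem2+/+ libraries, Trim46 and Trim29 separate the groups with tau from those without, and Trim47 runs the opposite way, from 72.0 CPM at most in Trem2+/+ to 20.4 CPM at least in R47H/+ with tau.

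Given tau fibrils, Trem2+/+ microglia raised 18 of the 43 members and lowered 5, where 26.5% of all genes were called (14.4% higher, 12.1% lower), with a median log2 change of 0.41 against -0.04 over all genes. In the chromosome 7 group, 10 of 13 rose and 0 fell, while Trim28, on that chromosome but outside the group, fell. The same Trem2+/+ libraries without tau serve as the baseline here and in the genotype comparison above, so the changes in both are not independent. Libraries with and without tau did not overlap for 24 members (55.8%), against 36.1% of all genes. With the 2 length-shifted libraries left out, 26 members were called, where 41.4% of all genes were, and fitting only the 6 libraries compared called 11 of 41, where 10.5% of all genes were.

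In Trem2+/+ cells given tau, Trim30a reached 488.2, 521.1 and 598.6 CPM (log2 change 1.75, SE 0.116, edgeR adjusted p = 9.328e-09) and Trim30d 208.6, 206.4 and 250.6 CPM (1.90). Trim30b went to 18.5, 19.1 and 22.0 CPM and Trim30c to 39.2, 38.7 and 45.0 CPM, log2 changes of 4.14 (SE 0.249, adjusted p = 3.257e-09) and 4.02 (SE 0.293, adjusted p = 2.792e-08, edgeR). These were the steepest rises among the 43 members. Trim34a rose by 2.03 to 61.4, 68.5 and 69.995 CPM, Trim21 by 1.71 to between 80.5 and 88.4 CPM, Trim12c by 1.07 and Trim12a by 0.95. Trim25 rose by 1.33 (SE 0.157) to 490.0, 473.1 and 469.9 CPM. Each of these genes was higher in every Trem2+/+ library with tau than in any without. Fitting only the 6 libraries compared, Trim12a lost its call (adjusted p = 0.05192, edgeR) at a log2 change of 0.93.

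Further antiviral members rose as well. Trim14 went from 52.9, 55.9 and 11.0 CPM to 149.2, 147.1 and 125.3 CPM, a log2 change of 1.81 (SE 0.397, edgeR adjusted p = 0.002747). Trim56, a ligase of STING signalling, changed by 0.95, Trim26 by 0.81, Trim65, which acts on the RNA sensor MDA5, by 0.57 and Trim41 by 0.42. All 5 have their lowest value in Trem2+/+ replicate 3, and without that library Trim56 changed by 0.59, Trim65 by 0.32 and Trim41 by 0.25, the last with its call lost (adjusted p = 0.09349, edgeR). Trim41 also lost it without Trem2+/+ with tau replicate 1 or 2 (adjusted p = 0.062 and 0.08627). Fitting only the 6 libraries compared ended the calls of Trim14, Trim26, Trim56, Trim65 and Trim41 (adjusted p = 0.09862, 0.1076, 0.1704, 0.2186 and 0.2177, edgeR). Trim6, which builds free ubiquitin chains in interferon signalling, and Trim5 changed by 0.65 and 0.46 with adjusted p of 0.04688 and 0.04956, and both calls were lost without Trem2+/+ replicate 1 or 3, without Trem2+/+ with tau replicate 2 or 3 and in the fit of only the 6 libraries compared. Trim6 lost it also without both length-shifted libraries, with DESeq2 (adjusted p = 0.07944) and without Trem2+/+ with tau replicate 1 (adjusted p between 0.05455 and 0.2283 over these fits of Trim6, and between 0.08256 and 0.2066 for Trim5, edgeR).

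In R47H/+ microglia the same tau treatment raised 8 of the 43 members and lowered 6, where 27.6% of all genes were called (15% higher, 12.6% lower), and the median log2 change of -0.07 lay near the 0.00 of all genes. Trim30b, Trim46, Trim29, Trim21, Trim30c, Trim30a, Trim12a and Trim30d rose. Of these, 6 belonged to the chromosome 7 group of 13, where 0 fell. The libraries did not overlap for 23 members (53.5%), against 49.8% of all genes. Once the 2 length-shifted libraries were left out the count was 24 of 43, where 42.8% of all genes were called, with Trim14, Trim25, Trim34a, Trim56, Trim6, Trim12c, Trim26 and Trim8 added among the higher ones.

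Trim30b stood at 52.2, 53.4 and 48.8 CPM in R47H/+ cells with tau, a log2 change of 2.41 (SE 0.207, edgeR adjusted p = 2.779e-07), and Trim21 at 119.3, 108.5 and 116.8 CPM, a change of 1.17 (SE 0.0948, adjusted p = 1.423e-07). Both were above every R47H/+ library without tau. Trim30c measured 63.3, 37.1 and 68.5 CPM, with the low value in the length-shifted library, and changed by 0.92. Its call was lost without R47H/+ with tau replicate 3 (log2 change 0.76, adjusted p = 0.05132, edgeR). Trim30a reached 707.1, 567.5 and 608.1 CPM, a change of 0.54 (SE 0.113), and Trim30d 288.0, 209.1 and 235.4 CPM, a change of 0.47 whose call was lost without R47H/+ replicate 3 or R47H/+ with tau replicate 1 (adjusted p = 0.05008 and 0.06146, edgeR). Trim12a was at 65.9, 95.2 and 72.2 CPM, a change of 0.54, which was 0.35 without the length-shifted libraries. Its call was lost without R47H/+ replicate 1, 2 or 3 or R47H/+ with tau replicate 2 (adjusted p = 0.05425, 0.08774, 0.06 and 0.1461, edgeR). Trim25 at 578.1, 399.3 and 573.9 CPM (0.41) and Trim34a at 81.0, 58.3 and 77.3 CPM (0.42) did not pass the test. Both had their lowest value in the length-shifted library, and without the 2 such libraries they passed at 0.55 and 0.54 (adjusted p = 1.551e-07 and 4.759e-06, edgeR).

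The difference between the 2 tau responses was tested as a genotype by tau interaction. It was called for 8 of the 43 members, where 5.37% of all genes were called (2.05% higher, 3.32% lower). The 8 were Trim30c, Trim30b, Trim34a, Trim30d, Trim30a, Trim25, Trim12c and Trim21, 7 of them on chromosome 7 and all of them filed in the PRY-SPRY class. All 8 had a smaller log2 rise in R47H/+ cells, where they began from a higher level without tau. In mean CPM, Trim30b rose more in R47H/+ cells, from 9.69 to 51.4 against 1.11 to 19.9. So did Trim21, from 51.1 to 114.9 against 25.8 to 84.8, while the rest rose less. The interaction of Trim30c was -3.10 on the log2 scale (SE 0.374, edgeR adjusted p = 9.063e-05), and that of Trim30a was -1.22 (SE 0.16, adjusted p = 0.0002122). All 8 stayed called without the 2 length-shifted libraries, at -2.57 for Trim30c, -1.12 for Trim30a and -0.59 for Trim25, whose value with all libraries was -0.92. Trim14, Trim12a and Trim65 joined them at -0.87, -0.85 and -0.52, and 11.9% of all genes were then called. Fitting only the 4 groups involved ended the calls of Trim34a, Trim12c, Trim25 and Trim21 (adjusted p = 0.07343, 0.05, 0.1073 and 0.1253, edgeR). Leaving out R47H/+ replicate 2 or Trem2+/+ with tau replicate 1 ended that of Trim25, and 6 libraries taken out singly ended that of Trim21.

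**Figure D4:**
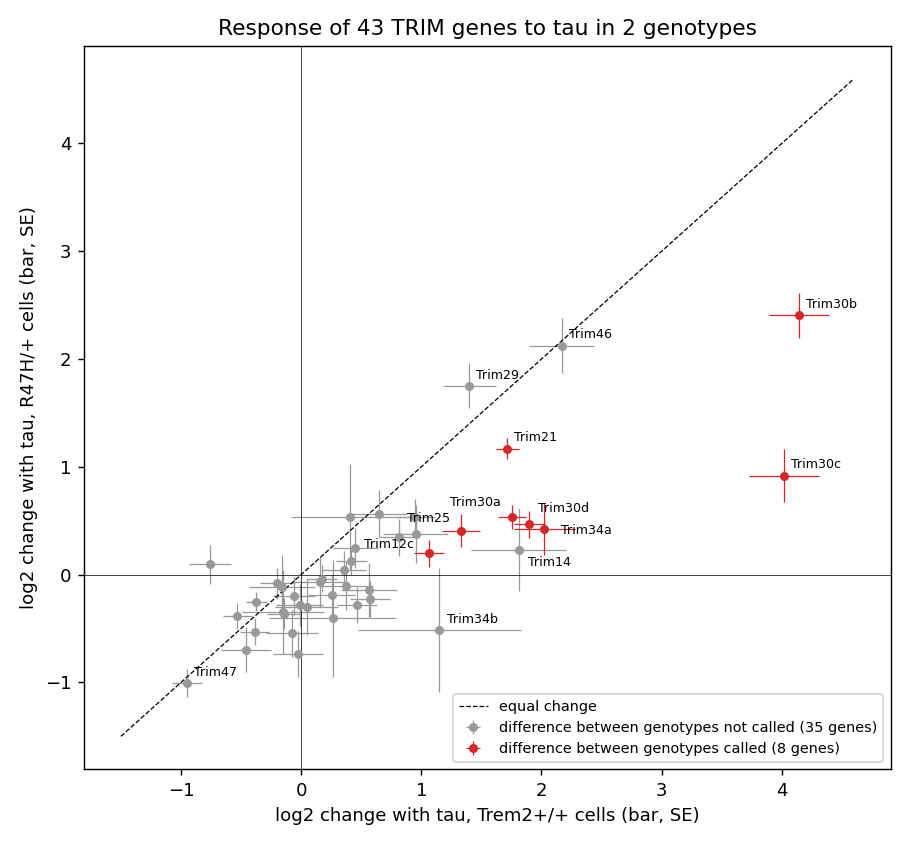
Log2 change with tau in Trem2+/+ cells (horizontal) against R47H/+ cells (vertical) for the 43 members, with bars of 1 SE; the dashed line marks equal change and red points are the 8 members whose difference between genotypes was called. The red points lie below the line, from Trim12c at 1.07 and 0.20 to Trim30b at 4.14 and 2.41, while Trim46 lies on it at 2.17 and 2.12.

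With tau in both genotypes, 4 members were higher and 2 lower in R47H/+ cells, where 9.5% of all genes were called (5.25% higher, 4.24% lower). The libraries did not overlap for 16 members (37.2%), against 33.7% of all genes. Trim30b was higher by 1.37 (SE 0.198, edgeR adjusted p = 0.0003501), at 48.8 to 53.4 against 18.5 to 22.0 CPM, and Trim21 by 0.44, at 108.5 to 119.3 against 80.5 to 88.4 CPM. Trim29 and Trim46 were higher by 1.00 and 0.85. Trim30a, Trim30c, Trim30d, Trim34a and Trim25, by contrast, differed by 0.23, 0.46, 0.14, 0.12 and 0.11 and were not called. Without the 2 length-shifted libraries 15 members were called, where 23.3% of all genes were, with Trim30c at 0.69, Trim30a at 0.29, Trim25 at 0.27 and Trim34a at 0.25 among them (adjusted p = 2.838e-05, 0.02308, 0.002508 and 0.02146, edgeR). Trim16, a galectin-binding protein of damaged lysosomes, was lower by 0.91 on the log2 scale, at 4.02, 3.62 and 2.97 CPM against 6.94, 5.75 and 7.27 CPM. Its call was lost without R47H/+ with tau replicate 2 or 3, or without Trem2+/+ with tau replicate 1 or 3.

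Trim46 and Trim29 rose with tau in all 3 backgrounds. Trim46 is a microtubule organiser of the neuronal axon initial segment, and Trim29 lacks a RING finger and regulates sensor adaptors in macrophages. Trim46 measured 0.780, 1.01 and 0.540 CPM in Trem2+/+, 3.35, 4.22 and 3.18 with tau, 2.11, 1.40 and 0.894 in R47H/+ and 6.27, 5.91 and 7.20 in R47H/+ with tau. Its tau change was 2.17 (SE 0.274), 2.12 (SE 0.252) and 2.10 (SE 0.258) in Trem2+/+, R47H/+ and R47H/+ with MK-2206 cells, with edgeR adjusted p of 1.636e-05, 8.688e-06 and 1.088e-05. Trim29 lay at 1.21 to 2.11 CPM in Trem2+/+, 4.09 to 5.85 with tau, 2.46 to 2.93 in R47H/+ and 8.0 to 10.4 in R47H/+ with tau, with tau changes of 1.40, 1.75 and 1.74. Every library with tau was above every library without tau for Trim46 and for Trim29. The higher level of Trim46 in R47H/+ cells with tau lost its call when any of 5 of the 6 libraries was left out (adjusted p between 0.05208 and 0.1232, edgeR), all but Trem2+/+ with tau replicate 2. The neuronal markers of the list each averaged under 1 CPM over the 18 libraries.

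A second set of members fell with tau. Trim47, a PRY-SPRY ligase, went from 58.3, 55.4 and 72.0 to 35.5, 32.9 and 27.6 CPM in Trem2+/+ cells, from 45.2, 42.5 and 47.4 to 20.4, 23.6 and 23.2 CPM in R47H/+ cells, and from 45.8, 48.3 and 50.7 to 29.6, 24.2 and 28.2 CPM with MK-2206. The log2 changes were -0.95 (SE 0.126), -1.01 (SE 0.128) and -0.82 (SE 0.127), with edgeR adjusted p of 2.78e-05, 1.783e-05 and 0.0001188. No library with tau reached a library of the same background without it. Trim47 was also lower in R47H/+ than in Trem2+/+ cells with tau, by 0.52 on the log2 scale, with the call lost when only the 6 libraries compared were fitted (adjusted p = 0.05115, edgeR) and without R47H/+ with tau replicate 1 or Trem2+/+ with tau replicate 1 or 2. Trim47 overlaps Trim65 on the same strand and shares 2.9% of its 150-base words with other genes.

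Trim28 fell with tau by 0.37, 0.25 and 0.40 on the log2 scale in Trem2+/+, R47H/+ and MK-2206-treated R47H/+ cells, and Trim37, a ligase of centrosomes and chromatin, by 0.39, 0.53 and 0.46. Trim24, a cofactor of nuclear receptors of the same PHD and bromodomain class as Trim28, fell by 0.53 in Trem2+/+ and 0.39 in R47H/+ cells. The Trim13 level of Trem2+/+ cells fell by 0.76, from 7.33 to 8.91 CPM to 4.07 to 5.85 CPM. Trim62 and Trim36, a microtubule-binding protein, were called lower with tau in R47H/+ cells at -0.73 and -0.69, and neither had its genotype by tau interaction called. Trim36 was called lower in Trem2+/+ cells too without the 2 length-shifted libraries, at -0.65 (edgeR adjusted p = 0.0006893), beside -0.50 in R47H/+ cells. Fits of the compared groups alone ended the calls of Trim28 in both genotypes and of Trim37, Trim24 and Trim13 in Trem2+/+ cells, and leaving out R47H/+ replicate 3 or R47H/+ with tau replicate 2 ended those of Trim62 and Trim36. Trim37 in Trem2+/+ cells lost its call without Trem2+/+ replicate 2 or any 1 of the 3 libraries with tau. Trim24 in R47H/+ cells lost its call when any library but R47H/+ replicate 2 was left out, and Trim28 there when any but R47H/+ with tau replicate 2 was.

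Members called with tau in both genotypes all moved the same way. There were 12: Trim12a, Trim21, Trim29, Trim30a, Trim30b, Trim30c, Trim30d and Trim46 higher, and Trim24, Trim28, Trim37 and Trim47 lower. They were 52.2% of the 23 members called in Trem2+/+ and 85.7% of the 14 called in R47H/+ cells. Over all genes, 1974 were called in both in the same direction and 54 in opposite directions, the former being 56.1% of the 3519 called in Trem2+/+ and 53.8% of the 3667 called in R47H/+ cells. The 2 comparisons share no library, and no test compared the shares of the members with those of all genes.

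In R47H/+ cells pre-treated with MK-2206, tau raised 11 members and lowered 3, where 25.6% of all genes were called (14.3% higher, 11.3% lower). The libraries did not overlap for 27 members (62.8%), against 55.6% of all genes. Trim30b went from 5.14, 4.65 and 6.01 to 39.4, 42.9 and 45.0 CPM, a log2 change of 3.01 (SE 0.216, edgeR adjusted p = 3.461e-08), Trim30c from 23.2, 21.4 and 24.1 to 69.9, 73.1 and 65.3 CPM (1.60) and Trim21 from 36.5, 37.4 and 37.0 to 105.5, 111.8 and 110.2 CPM (1.56). Trim30a, Trim30d, Trim34a, Trim12c and Trim25 rose by 0.90, 0.89, 0.88, 0.67 and 0.56. None of these 8 genes overlapped between groups. Trim17, at 0.773 to 1.02 against 0.162 to 0.467 CPM, changed by 1.46. Its call was lost without R47H/+ with MK-2206 replicate 1 or 2 and without R47H/+ with MK-2206 and tau replicate 2 or 3, and 15% of its 150-base words are shared with Hist3h2a. The 2 length-shifted libraries are not in these groups but enter the shared spread, and without them 22 members were called, where 48% of all genes were. Leaving out R47H/+ with MK-2206 replicate 1 ended the call of Trim37 (adjusted p = 0.05786, edgeR).

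With MK-2206 and no tau, 0 of the 43 members were higher and 2 lower, where 2.55% of all genes were called (1.19% higher, 1.36% lower). The libraries did not overlap for 18 members (41.9%), against 32.6% of all genes. Trim30b fell from 9.82, 9.76 and 9.49 to 5.14, 4.65 and 6.01 CPM, a log2 change of -0.88 (SE 0.212, edgeR adjusted p = 0.03529), and Trim21 from 52.8, 50.1 and 50.3 to 36.5, 37.4 and 37.0 CPM, a change of -0.47 (SE 0.0945, adjusted p = 0.01345). The groups did not overlap for either gene, but the call of Trim30b was lost when any of the 6 libraries was left out (adjusted p between 0.07543 and 0.1865) and that of Trim21 when any but R47H/+ replicate 2 was (between 0.05107 and 0.08123, edgeR). Without the 2 length-shifted libraries 7 members were called, where 13.9% of all genes were, with Trim30a, Trim30c and Trim30d lower by 0.28, 0.37 and 0.30 on the log2 scale and Trim3 higher at 0.35 among them. Fitting only the 6 libraries compared called 8 of 41 members tested (19.5%), where 18.1% of all genes were called.

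With tau, MK-2206 changed 0 of 43 members by edgeR, where 3.04% of all genes were called (1.64% higher, 1.4% lower). The libraries did not overlap for 16 members (37.2%), against 27.7% of all genes. At an unadjusted p under 0.05 there were 3, and DESeq2 called 0. Trim30b differed by -0.28 and Trim30a by 0.08 between tau-treated R47H/+ cells with and without MK-2206. The test of whether MK-2206 changed the tau response called 0 members, where 0.377% of all genes were called (0.181% higher, 0.196% lower), with 4 at an unadjusted p under 0.05 and 1 called by DESeq2. Without the 2 length-shifted libraries Trim35 was called lower with MK-2206 and tau, at -0.45 (adjusted p = 0.0001023, edgeR), where 12% of all genes were called.

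The 16 members called in none of the 7 comparisons were Trim2, Trim3, Trim7, Trim8, Trim11, Trim23, Trim27, Trim32, Trim33, Trim34b, Trim35, Trim39, Trim44, Trim45, Trim59 and Trim68. They include the 3 members with NHL repeats, Trim2, Trim3 and Trim32, and, on chromosome 7, Trim3, Trim34b and Trim68. Of the 16, 6 were called in at least 1 comparison without the 2 length-shifted libraries. In that fit 28.9% of all genes were called between genotypes without tau and 23.3% with tau. For tau it was 41.4% in Trem2+/+, 42.8% in R47H/+ and 48% in MK-2206-treated R47H/+ cells. For MK-2206 it was 13.9% without and 12% with tau. The share called in at least 1 comparison was not counted over all genes. Between genotypes without tau, Trim2 and Trim32 were then lower at -1.21 and -0.30 (edgeR adjusted p = 0.009186 and 0.02573), and Trim32 was lower with tau in Trem2+/+ cells at -0.27. Trim3 was higher with MK-2206 without tau at 0.35. Trim33 and Trim35 were lower with tau in all 3 backgrounds, at -0.30, -0.32 and -0.23 and at -0.30, -0.20 and -0.45, and Trim8 was higher with tau in R47H/+ cells without and with MK-2206 at 0.30 and 0.23. Trim8, the fourth most abundant member, measured 138.9, 136.6 and 69.6 CPM in Trem2+/+ and 105.3 to 172.9 CPM in all other libraries, with the lowest value in the length-shifted library. Trim27, a PRY-SPRY ligase of endosomal trafficking, stayed between 43.4 and 58.6 CPM in 17 libraries and reached 71.3 in Trem2+/+ replicate 3. Missing the threshold does not show that these genes were equal between groups. Trim34b, at 0 to 0.894 CPM, shares 11.6% of its words with Trim34a, and its reads cannot be fully separated from that gene.

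By carboxy-terminal class, 24 members were filed in the class named for a PRY-SPRY domain without a fibronectin type III domain. Other classes hold SPRY proteins too, among them Trim36 and Trim46, and protein sequences were not used. Without tau 10 of the 24 were higher and 1 lower in R47H/+ cells, and tau raised 14 and lowered 1 in Trem2+/+ cells. Over all genes 8.22% were higher and 6.83% lower in the first comparison and 14.4% and 12.1% in the second, and with tau in R47H/+ cells 15% and 12.6%. Among the 3 members with a PHD finger and bromodomain, Trim24, Trim28 and Trim33, 0 rose and 2 fell with tau in each genotype. Of the 9 members with the response element core in the RefSeq promoter, 7 were higher and 0 lower in R47H/+ cells without tau and 8 rose and 0 fell with tau in Trem2+/+ cells. Of the 23 members whose matched windows lack it, 3 were higher and 3 lower, and 7 rose and 5 fell. Trim30a and Trim30d, and Trim5, Trim12a and Trim12c, share promoter runs with the core and are counted separately here. Trim2 held the core at 1 of its RefSeq starts and not at the others, and was not called, with -0.97 and -0.15. It was called lower between genotypes, at -1.21, without the 2 length-shifted libraries.

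Genes that work with TRIM proteins were taken from pathway lists, with values as log2 changes. Over all genes 8.22% were higher and 6.83% lower in R47H/+ cells without tau. With tau 14.4% rose and 12.1% fell in Trem2+/+ cells, and 15% and 12.6% in R47H/+ cells. Among TRIM proteins filed under other symbols, Pml, the organiser of nuclear bodies, was higher in R47H/+ cells without tau by 1.53 (edgeR adjusted p = 0.001022), rose by 2.10 with tau in Trem2+/+ cells and had an interaction of -1.59. These Pml values were 1.17, 1.73 and -1.08 without the 2 length-shifted libraries. Of 14 tested genes of the RIG-I and MAVS pathway, 6 were higher and 0 lower in R47H/+ cells without tau, 11 rose and 0 fell with tau in Trem2+/+ cells and 8 rose and 0 fell in R47H/+ cells. They included RIG-I itself (Ddx58), at 1.91, 2.53 and 0.78 in these 3 comparisons, the related helicase Dhx58 (LGP2) at 1.62, 2.15 and 0.81, and the transcription factor Irf7 at 3.44, 4.13 and 1.59. Of 13 genes of the cGAS, STING and Toll-like receptor adaptors, 9, 10 and 6 were higher in the same order and 0 lower, with the RNA receptor Tlr3 at 1.47, 2.13 and 1.43. Without the 2 length-shifted libraries the RIG-I and MAVS list had 6 higher and 1 lower, 11 and 0, and 10 and 0 in these comparisons, and the cGAS, STING and Toll-like receptor list 9 and 1, 10 and 1, and 8 and 1. Of all genes 28.9%, 41.4% and 42.8% were then called in either direction.

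Of 16 ubiquitin conjugating and activating enzymes tested, 2 were higher in R47H/+ cells without tau, Uba7 at 1.66 and Ube2l6 at 1.53, the activating and conjugating enzymes of the ubiquitin-like protein ISG15, and 4 rose and 1 fell with tau in Trem2+/+ cells. Of 14 NF-kB adaptors and TAK1 components, 1 was higher and 2 lower in R47H/+ cells without tau, the latter being the inhibitors Nfkbia at -0.70 and Tnfaip3 at -0.56, and 5 rose and 0 fell with tau in Trem2+/+ cells. Of 11 autophagy partners, 0 were higher and 2 lower in R47H/+ cells without tau, Gabarapl1 at -0.50 and Lgals3, the galectin that Trim16 binds, at -0.93, and 0 rose and 4 fell with tau in Trem2+/+ cells. Over all genes 15.1% and 26.5% were called in these comparisons in either direction, and no list was tested as a set. Without the 2 length-shifted libraries the ubiquitin enzymes had 4 higher and 2 lower between genotypes, 5 and 1 with tau in Trem2+/+ cells and 10 and 0 with tau in R47H/+ cells, against 7 and 0 there with all libraries. The NF-kB list then had 1 and 3, 5 and 2, and 5 and 2, with Tnfaip3 lower with tau in Trem2+/+ cells at -0.36 (edgeR adjusted p = 0.00155), and the autophagy list 1 and 2, 2 and 4, and 3 and 5. Lgals3 differed by -0.44 between genotypes in that fit, where 28.9%, 41.4% and 42.8% of all genes were called in the comparisons in this order. In the MK-2206 comparison with tau, Tank of the RIG-I list was lower at -0.50 and Ube2n, the enzyme of lysine 63 ubiquitin chains, at -0.59 (edgeR adjusted p = 0.04687 and 0.03893).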

How the data were processed

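The authors deposited 1 table of counts, as whole numbers that were not normalized, beside each gene's coordinates and length. Per the submitters' processing notes STAR, featureCounts and DESeq2 were used on GRCm38 (mm10); versions, settings and the strand setting of the counting are not given in the sources used here. Reads of overlapping genes therefore cannot be told apart from those of the member: Trim41 overlaps Rack1, Trim28 Zbtb45, Trim46 Krtcap2, Trim32 Astn2 and Trim14 Nans. Replicate pairs differed by more than counting error, with a chi-square per gene between 3.38 and 277.

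Tools were edgeR 4.0.16 under R 4.3.3, with DESeq2 1.42.0 for comparison. A quasi-likelihood fit with 1 coefficient for each group took 13267 genes that filterByExpr kept in 18 libraries, with TMM scaling and 12 residual degrees of freedom. All 7 pairwise comparisons and 2 interactions were tested two-sided with Benjamini-Hochberg adjustment over all genes at 0.05. CPM used TMM library sizes, and RPKM the deposited gene length. An exact permutation of 3 against 3 libraries cannot go below 0.1. Alternatives tried were DESeq2, scaling by RLE, leaving off the count filter, the compared groups alone, a replicate block, each library left out and both length-shifted libraries left out.

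Members, lists and alternatives were chosen with earlier results of these data known. Named were, per comparison, up to 5 higher and 5 lower called members of largest change whose log2 CPM averaged 0 or more, up to 6 per interaction, the 3 highest by RPKM, the highest of each class, the 3 nearest the count limit on each side, all never called and up to 4 genes per list by p; other called members were named after their values were seen. Shared 150-base words were counted in GENCODE M21 transcripts. Nothing in the labels says what same-numbered libraries shared beyond the number. Protein sequences were not used here.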

Additional observations from a re-analysis of the deposited data

Results flagged for a closer look

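For 8 members the change with tau differed between R47H/+ and Trem2+/+ cells by the test of the difference itself (edgeR quasi-likelihood, Benjamini-Hochberg over all genes). Each value is the log2 change with tau in R47H/+ minus that in Trem2+/+ cells. It was -3.10 for Trim30c (SE 0.374, adjusted p = 9.063e-05), -1.73 for Trim30b (SE 0.317, adjusted p = 0.003121), -1.60 for Trim34a (SE 0.346, adjusted p = 0.01092) and -1.43 for Trim30d (SE 0.177, adjusted p = 0.000118). Trim30a had -1.22 (SE 0.16, adjusted p = 0.0002122), Trim25 -0.92 (SE 0.219, adjusted p = 0.02007), Trim12c -0.87 (SE 0.175, adjusted p = 0.006758) and Trim21 -0.54 (SE 0.133, adjusted p = 0.02363). The call of Trim21 was lost when R47H/+ replicate 1, 2 or 3, R47H/+ with tau replicate 2 or Trem2+/+ with tau replicate 2 or 3 was left out, with adjusted p between 0.05336 and 0.06962, and that of Trim25 without R47H/+ replicate 2 (0.05635) or Trem2+/+ with tau replicate 1 (0.0501).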

How the results depend on the processing

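Of 81 member calls in the 9 comparisons, 43 were kept under every alternative run, 38 were lost under at least 1 and 0 reversed. RLE scaling shifted the median of all genes by at most 0.0234 in size. Members called and all genes called are given below for the comparisons in the order: genotype without tau, genotype with tau, tau in Trem2+/+, tau in R47H/+, tau with MK-2206, MK-2206 without tau, MK-2206 with tau, genotype by tau, MK-2206 by tau. With all libraries all genes called were 1997, 1260, 3519, 3667, 3393, 338, 403, 713 and 50. Leaving out 1 library gave members of 9 to 17, 3 to 6, 19 to 25, 8 to 13, 12 to 15, 0 to 1, 0 to 0, 6 to 11 and 0 to 0, and all genes of 1295 to 2975, 629 to 1041, 2640 to 4188, 2686 to 3373, 2709 to 2913, 138 to 198, 150 to 245, 471 to 1537 and 9 to 43. Without both length-shifted libraries members were 19, 15, 26, 24, 22, 7, 1, 11 and 0, and all genes 3907, 3141, 5589, 5773, 6475, 1878, 1620, 1610 and 667. A fit of the compared groups alone gave members of 7 (genotype without tau), 11 (tau in Trem2+/+), 22 (tau with MK-2206), 8 (MK-2206 without tau) and 4 (genotype by tau), and all genes of 474, 1311, 6225, 2236 and 360 in these, with 220 for MK-2206 with tau and 187 for MK-2206 by tau. DESeq2 gave all genes of 583, 753, 1194 and 220 in the last 4 comparisons and 1 member for MK-2206 by tau. No count filter gave 3 members for genotype with tau, 1 for MK-2206 without tau and 236 genes for MK-2206 with tau. Trim56 between genotypes with tau went from -0.00 to 0.22 without both length-shifted libraries (edgeR adjusted p = 0.04813). The longer response element was found in 3 members against 9. The cause of these moves was not tested.

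With the replicate block members were 14, 6, 21, 13, 14, 1, 0, 8 and 0, and all genes 249 for MK-2206 with tau and 21 for MK-2206 by tau. Of 45 same-numbered pairs 4 had a correlation of deviations over 0.1, and 5 of 18 libraries correlated best with their own number, so the block is no test of pairing by design.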
